A study of Mus musculus with 4 samples.

Results

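The genes that encode the nuclear subunits of the mitochondrial respiratory chain and of ATP synthase were followed in RNA-seq counts from mouse inguinal fat. Members were chosen by symbol: Nduf genes with a, b, c, s or v as the next letter, Sdha to Sdhd, and genes beginning with Uqcr, Cox4 to Cox8 or Atp5, with Cyc1 and Cycs added. Cox7a1, Cox8b and the assembly factors named Ndufaf were left out. The rule found 90 of the 26214 symbols in the count tables. Of these, 40 belong to complex I, 4 to complex II, 9 to complex III, 19 to complex IV and 17 to complex V, and Cycs encodes the carrier cytochrome c. Ndufa4 and its paralogue Ndufa4l2 were counted under complex IV, where the NDUFA4 protein is known to sit.

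The study compared the stromal vascular fraction (SVF) of inguinal white adipose tissue (iWAT) from mice given a medicinal herb extract (MHE) with that from mice given phosphate-buffered saline (PBS). Each group had 2 libraries of total RNA, called biological replicates in the labels, with totals of 27161882 to 33391075 counts. The labels name no genotype, strain, age, diet, dose or duration, and do not say what the extract contains or whether animals were pooled. The question was which genes differ with the treatment.

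The SVF is what is left of digested fat after floating adipocytes are removed, yet the 10 adipocyte markers summed to 11686 to 23858 CPM (counts scaled to a common library size) in every library, against 585 to 866 CPM for the 8 progenitor markers. Lymphocyte markers differed most between the groups: the 8 T cell markers summed to 832 and 607 CPM with MHE and to 29.2 and 9.33 CPM with PBS. The 8 B cell markers summed to 1809 and 1482 CPM with MHE, and to 104 and 8.96 CPM in PBS replicates 1 and 2. PBS replicate 1 also held 134 CPM of 6 epithelial markers, against 2.06 to 6.35 CPM in the other libraries, and 22.1 CPM of 6 testis markers, against 0 to 0.0702 CPM. In bulk RNA, fewer cells of a type and less RNA per cell cannot be told apart.

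The respiratory chain passes electrons from NADH (complex I) and succinate (complex II) through ubiquinone to complex III, on to cytochrome c and then to oxygen at complex IV. Complexes I, III and IV pump protons as they do so, and complex V, the ATP synthase, lets the protons flow back to make ATP. Each complex except complex II joins subunits made from mitochondrial DNA with subunits made from nuclear genes, and the mitochondrially encoded subunits are not analysed here. In fat, the chain serves the oxidation of fatty acids and, in brown and beige adipocytes, heat production.

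Across the chain, transcripts were at similar levels in MHE replicate 1 and in both PBS libraries, and were lower in MHE replicate 2. All 90 members together summed to 12099 CPM in MHE replicate 1 and 7466 CPM in MHE replicate 2, and to 11446 and 12271 CPM in PBS replicates 1 and 2. The group means were 9782 ± 3276 CPM with MHE and 11859 ± 583 CPM with PBS (SD, n = 2 each), so that the difference in means was smaller than the spread between the MHE libraries. MHE replicate 1 stood at 102% of the PBS mean and MHE replicate 2 at 63.0%. MHE replicate 2 was the lowest of the 4 libraries in 81 of the 86 tested members, where it was lowest in 22.8% of all 16196 tested genes, and it was below MHE replicate 1 in 85 members, against 49.6% of genes.

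No member passed the test between the groups. By edgeR's quasi-likelihood test with Benjamini-Hochberg adjustment over all tested genes, 0 of 86 members had an adjusted p under 0.05, where 4.93% of tested genes did (3.97% as higher and 0.963% as lower). Only Ndufa4l2 had an unadjusted p under 0.05, against 28.6% of tested genes. DESeq2 called 1 member, Ndufa4l2, and 18.2% of genes, while limma-voom called 0 members and 7.0% of genes. Members called also numbered 0 in edgeR with median-of-ratios size factors (5.01% of genes called), library totals alone (5.85%), no low-count filter (4.18%), a stricter filter (6.61%), the replicate block (4.72%), no robust estimation (5.23%) and without PBS replicate 2 (14.6%). Without MHE replicate 1 or without MHE replicate 2, 0.00% of genes were called. The other 4 members were too low to be tested: Ndufa11b, Cox7b2 and Cox8c had 0 counts in every library, and the pseudogene Cox7c-ps1 had 6 to 12.

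Log2 fold changes (MHE minus PBS) were negative in 79 of the 86 tested members, with a median of -0.30. Of all tested genes, 51.2% were negative, and their median was -0.02. The members' sign rested on MHE replicate 2. Without that library, 33 of 87 tested members were negative and 54 positive, with a median of 0.07 (51.6% of all genes negative). Without MHE replicate 1, 83 were negative, with a median of -0.70 (52.2% of all genes negative). Both MHE libraries were below both PBS libraries in 23 members, which is 26.7% of those tested and close to the 28.9% of all tested genes. Both were above in 1 member, against 33.1% of genes, so that the groups did not overlap in 24 members, against 62.0% of genes. With library totals alone 65 members were negative (42.1% of genes), and with the replicate block 80 (50.6%).

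**Figure D1:**
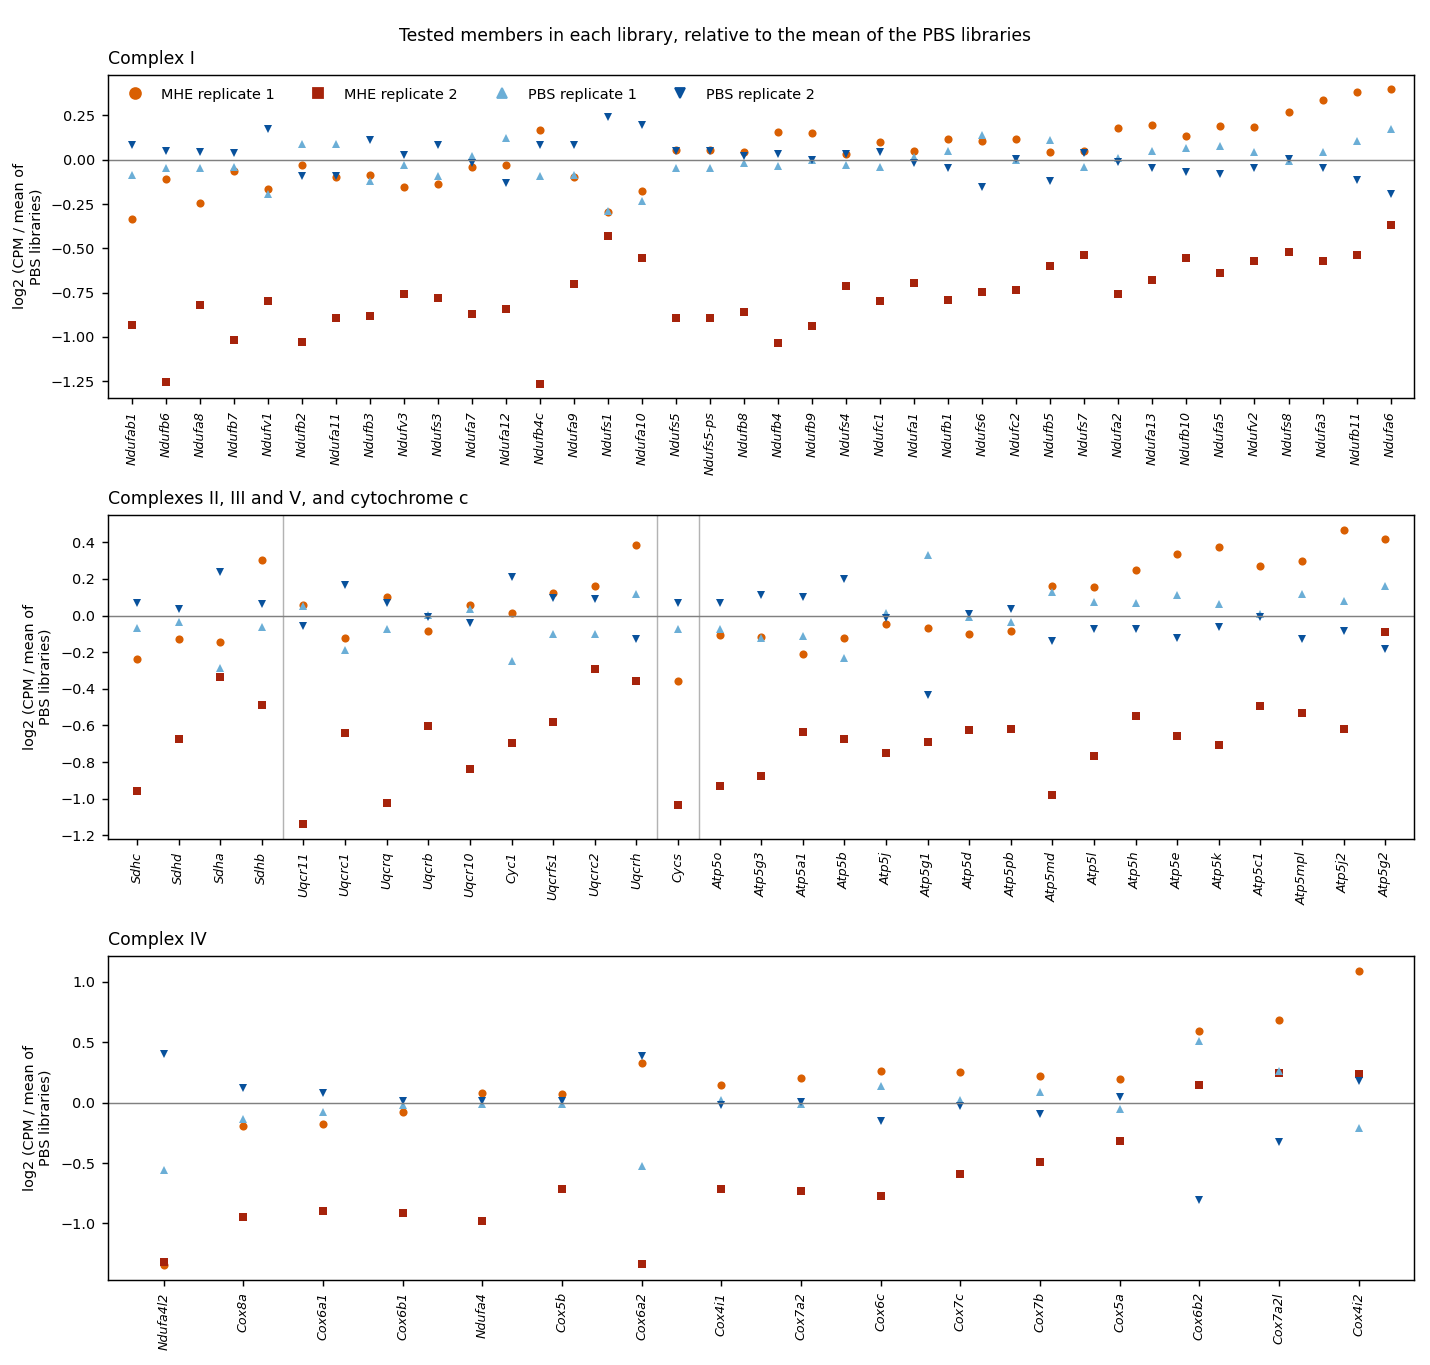
Tested members (horizontal axis, 1 of the 86 not drawn) in each of the 4 libraries, as log2 of the CPM over the mean CPM of the PBS libraries (vertical axis), with the complexes in separate panels or divided by grey lines. The dark red squares of MHE replicate 2 lie lowest in all but 5 of the members drawn, while MHE replicate 1 lies among or above the PBS libraries in most.

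The difference between the MHE libraries ran through every complex. Complex I summed to 3219 and 1885 CPM in MHE replicates 1 and 2, against 3086 and 3206 CPM in PBS replicates 1 and 2. Complex III gave 1270.1 and 768 CPM with MHE, against 1141 and 1242 CPM with PBS. Complex IV gave 2534 and 1482 CPM with MHE, against 2327 and 2265 CPM with PBS. In these 3 complexes MHE replicate 1 exceeded both PBS libraries and MHE replicate 2 was under both.

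Complex V, with the highest sum, gave 4118 and 2633 CPM with MHE and 3934 and 4390 CPM with PBS. Complex II was the least different between the MHE libraries, at 798 and 597 CPM, against 762 and 950 CPM with PBS. MHE replicate 2 thus held 58.6%, 74.8%, 60.5%, 58.5% and 63.9% of the level of MHE replicate 1 for complexes I to V. The groups overlapped in all 5 sums.

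**Figure D2:**
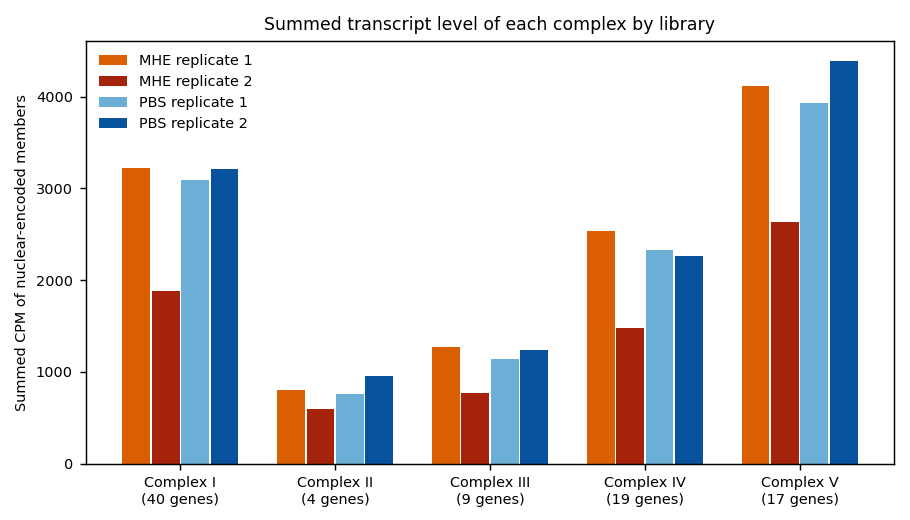
Summed CPM of the members of each complex (bars from 0), 1 bar per library, with the number of member genes under each complex. In every complex the bar of MHE replicate 2 is the shortest, from 597 CPM for complex II to 2633 CPM for complex V.

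Nuclear respiratory chain genes are known to share promoter motifs bound by NRF1, by ETS factors such as GABPA, and by YY1. RefSeq promoters of GRCm38.p6, the assembly behind mm10, running from 250 bases before to 50 after the start site, were matched for 69 of the 90 members (74 promoters). The NRF1 motif (a pair of GCGC blocks around a short spacer, in capitals in the runs that follow), searched on both strands, was found in 18 of these promoters (24.3%), against 4.6% of all 32851 promoters and 8.52% of the promoters of tested genes. The ETS motif CCGGAAG was in 23.0% of member promoters, against 8.86% of all and 15.2% of those of tested genes. For the YY1 motif AAGATGGCG the shares were 9.46%, 1.40% and 2.47%, and for the cyclic AMP response element TGACGTCA they were 6.76%, 1.79% and 2.71%. At least 1 of the NRF1, ETS and YY1 motifs was found for 35 of the 69 members. In 0 of the 74 promoters did matches of different motifs overlap. A match is a description of letters, not a binding site.

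The following promoters, 1 from each complex with an NRF1 match and that of Cycs, show where the shared motifs lie. Each runs 5′ to 3′ on the strand of its gene, from 250 bases before to 30 bases after the RefSeq start site. Matches to the NRF1, ETS, YY1, cyclic AMP response element and TCAAGGTCA motifs that lie within the run are in capitals. Matches that reach past its end, within the 50 bases searched, are counted in the shares but not shown. These are the YY1 match of Ndufs6 and the TCAAGGTCA match of Sdhd. Positions are counted from the first base printed.
Ndufs6 (chr13:73328453-73328732, minus strand): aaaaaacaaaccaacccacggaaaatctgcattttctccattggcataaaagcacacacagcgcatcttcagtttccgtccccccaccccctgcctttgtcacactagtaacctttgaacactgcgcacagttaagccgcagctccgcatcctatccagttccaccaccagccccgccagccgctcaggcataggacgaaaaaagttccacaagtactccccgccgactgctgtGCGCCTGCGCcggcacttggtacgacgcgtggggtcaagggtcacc
Sdhd (chr9:50603820-50604099, minus strand): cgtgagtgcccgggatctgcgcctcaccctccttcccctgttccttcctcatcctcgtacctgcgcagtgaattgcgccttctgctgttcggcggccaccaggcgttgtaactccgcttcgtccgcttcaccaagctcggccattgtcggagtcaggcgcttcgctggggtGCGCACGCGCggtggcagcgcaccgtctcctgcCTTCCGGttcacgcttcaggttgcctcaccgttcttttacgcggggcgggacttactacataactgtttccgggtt
Uqcrc1 (chr9:108936398-108936677, plus strand): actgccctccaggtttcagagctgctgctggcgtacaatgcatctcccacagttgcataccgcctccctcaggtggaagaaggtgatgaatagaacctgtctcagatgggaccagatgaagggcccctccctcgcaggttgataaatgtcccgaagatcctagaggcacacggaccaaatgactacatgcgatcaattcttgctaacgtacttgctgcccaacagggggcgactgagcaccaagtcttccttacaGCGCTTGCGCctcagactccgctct
Cox6a1 (chr5:115348929-115349208, minus strand): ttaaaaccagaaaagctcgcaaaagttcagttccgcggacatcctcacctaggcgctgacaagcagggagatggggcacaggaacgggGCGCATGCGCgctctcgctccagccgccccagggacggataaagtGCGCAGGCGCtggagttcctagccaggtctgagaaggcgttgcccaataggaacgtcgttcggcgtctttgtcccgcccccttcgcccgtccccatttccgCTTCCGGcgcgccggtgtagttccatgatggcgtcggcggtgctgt
Atp5h (chr11:115419890-115420169, minus strand): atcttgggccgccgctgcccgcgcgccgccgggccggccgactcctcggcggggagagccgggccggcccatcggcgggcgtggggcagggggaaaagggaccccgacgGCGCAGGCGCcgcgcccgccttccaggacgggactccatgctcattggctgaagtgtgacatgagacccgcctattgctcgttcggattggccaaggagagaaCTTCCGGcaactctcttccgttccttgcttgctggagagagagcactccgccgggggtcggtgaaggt
Cycs (chr6:50566540-50566819, minus strand): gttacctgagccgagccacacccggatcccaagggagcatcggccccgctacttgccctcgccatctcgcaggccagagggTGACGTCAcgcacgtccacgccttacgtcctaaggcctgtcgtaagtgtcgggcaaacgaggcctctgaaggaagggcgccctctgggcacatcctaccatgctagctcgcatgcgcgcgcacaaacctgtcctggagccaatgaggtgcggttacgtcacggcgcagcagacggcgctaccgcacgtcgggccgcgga
In the Cox6a1 promoter the NRF1 motif occurs at positions 89 and 134 and the ETS motif, on the other strand, at 235. In that of Sdhd the NRF1 motif lies at 172 and the ETS motif at 205, and in that of Atp5h they lie at 110 and 213. The run of Uqcrc1 has its NRF1 match at 256, and that of Ndufs6 at 235. The Cycs run has the cyclic AMP response element at 82.

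Complex I takes electrons from NADH through a flavin and a chain of iron-sulphur clusters held by 7 core nuclear subunits, around which many accessory subunits are placed. All 7 core subunits had negative log2 fold changes, from -0.45 to -0.07 with a median of -0.21 and adjusted p of 0.366 to 0.893. Ndufs1, which carries iron-sulphur clusters of the NADH-binding arm, stood at 85.1 and 77.4 CPM with MHE and at 85.4 and 124 CPM with PBS. MHE replicate 1 and PBS replicate 1 were nearly equal for this gene and PBS replicate 2 was high, so that the groups just failed to overlap. Its log2 fold change was -0.36 ± 0.26 (SE; edgeR adjusted p = 0.394).

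Ndufv1, the flavin-binding subunit, had 125 and 80.4 CPM with MHE and 122 and 157 CPM with PBS. The groups overlapped, and the log2 fold change was -0.45 ± 0.30 (edgeR adjusted p = 0.376).

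Of the 33 accessory genes of complex I, 32 were tested and 31 of them were negative, with a median of -0.33. The lowest was Ndufab1, the mitochondrial acyl carrier protein, with 68.6 and 45.4 CPM with MHE and 81.7 and 91.7 CPM with PBS. Both MHE libraries were below both PBS libraries, and the log2 fold change was -0.60 ± 0.27 (edgeR adjusted p = 0.211). At the other end, Ndufa6 had 86.2 and 50.7 CPM with MHE and 73.7 and 57.1 CPM with PBS, so that MHE gave both the highest and the lowest value (0.066 ± 0.32, edgeR adjusted p = 0.910).

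MHE replicate 2 held 55.4% of the level of MHE replicate 1 in the median accessory subunit and 64.5% in the median core subunit. The accessory range ran from 37.0% (Ndufb4c) to 77.0% (Ndufa10), and the core range from 57.8% to 90.9% (Ndufs1). Ndufs5 and the pseudogene Ndufs5-ps had identical counts in all 4 libraries (3052, 1358, 2369 and 2704 in MHE replicates 1 and 2 and PBS replicates 1 and 2). They are a single measurement listed under 2 symbols, and both symbols are included in the counts of members and the sums given here. How reads shared by near-identical copies were counted is not given in the sources used here, which also limits Ndufb4 and Ndufb4c.

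Complex II, succinate dehydrogenase, is also an enzyme of the tricarboxylic acid cycle and is made from nuclear genes alone. Its flavin subunit gene Sdha stood at 394 and 345 CPM with MHE and at 357 and 513 CPM with PBS. Here the PBS libraries differed more from each other than the MHE libraries did, and the log2 fold change was -0.24 ± 0.31 (edgeR adjusted p = 0.646). Sdhb, the iron-sulphur subunit, had 120 and 69.4 CPM with MHE, on either side of its 93.1 and 101 CPM with PBS (-0.04 ± 0.31, edgeR adjusted p = 0.944).

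The membrane anchors that hold the complex and bind ubiquinone had both MHE values under both PBS values. Sdhc had 157 and 95.1 CPM with MHE and 176 and 193 CPM with PBS, a log2 fold change of -0.55 ± 0.31 that did not pass (edgeR adjusted p = 0.300). Sdhd had 128 and 87.6 CPM with MHE and 136 and 143 CPM with PBS (-0.37, edgeR adjusted p = 0.391). The difference between anchors and catalytic subunits was not tested.

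Complex III passes electrons from ubiquinol to cytochrome c through the Rieske protein (Uqcrfs1) and cytochrome c1 (Cyc1). Uqcrfs1 had 198 and 122 CPM with MHE and 169 and 194 CPM with PBS, and Cyc1 had 127 and 77.4 against 106 and 145 CPM. The groups overlapped in both, and log2 fold changes were -0.19 ± 0.31 and -0.30 ± 0.33 (edgeR adjusted p = 0.723 and 0.582). The core protein gene Uqcrc1 had 151 and 105 CPM with MHE and 144 and 184 CPM with PBS (-0.36 ± 0.28, edgeR adjusted p = 0.445).

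The 5 small subunits of complex III spread more between the MHE libraries than the 4 core and catalytic ones: MHE replicate 2 held 53.8% of MHE replicate 1 in their median, against 65.6%. Uqcr11 had the lowest log2 fold change of the complex (-0.42 ± 0.42, edgeR adjusted p = 0.541), with 85.7 and 37.4 CPM with MHE and 85.3 and 79.3 CPM with PBS. MHE replicate 1 matched PBS there and MHE replicate 2 alone was low. Uqcrb, which had the smallest p, stood at 89.5 and 62.4 CPM with MHE and 95.3 and 94.6 CPM with PBS (-0.32 ± 0.25, edgeR adjusted p = 0.434). Uqcrh, the hinge protein gene, was the only member of complex III with a positive value (0.062 ± 0.32, edgeR adjusted p = 0.914), with 189 and 113 CPM with MHE around 157 and 133 CPM with PBS.

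Cycs encodes the somatic cytochrome c, which carries electrons from complex III to complex IV and also takes part in apoptosis. It had 161 and 101 CPM with MHE and 196 and 217 CPM with PBS. Both MHE values were under both PBS values, and only Ndufa4l2 among the 86 tested members had a lower log2 fold change than its -0.66 ± 0.30, which did not pass (edgeR adjusted p = 0.225). Without MHE replicate 2 it was -0.35, and without MHE replicate 1 -1.02.

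Complex IV, cytochrome c oxidase, has a catalytic core made in mitochondria and nuclear subunits that exist in tissue-specific forms. Its common subunits followed the pattern of the other complexes. Cox4i1 had 483 and 266 CPM with MHE and 444 and 430 CPM with PBS (-0.22 ± 0.37, edgeR adjusted p = 0.725). Cox5a had 70.7 and 49.5 CPM with MHE and 59.6 and 63.7 CPM with PBS (-0.04 ± 0.24, edgeR adjusted p = 0.932). For these genes MHE replicate 1 was the highest library and MHE replicate 2 the lowest.

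The common forms Cox6a1, Cox6b1 and Cox8a had both MHE libraries under both PBS libraries. Cox8a, a small transmembrane subunit, had 261 and 155 CPM with MHE and 273 and 325 CPM with PBS, and Cox6a1 had 190 and 116 against 203 and 227 CPM. Cox6b1, on the side facing cytochrome c, had 182 and 102 against 190 and 194 CPM. Their log2 fold changes were -0.52 ± 0.34, -0.49 ± 0.32 and -0.43 ± 0.34 (edgeR adjusted p = 0.360, 0.354 and 0.434). Cox7a2, Cox7b and Ndufa4 overlapped between the groups, at -0.19, -0.09 and -0.35 (edgeR adjusted p = 0.744, 0.864 and 0.582).

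Ndufa4l2, an NDUFA4 paralogue known to be induced in hypoxia and expressed in pericytes, had the lowest log2 fold change of all members. It stood at 5.24 and 5.34 CPM with MHE and at 9.06 and 17.5 CPM with PBS. It was the only one of the 86 tested members in which MHE replicate 2 was not below MHE replicate 1. The log2 fold change was -1.33 ± 0.39 (edgeR adjusted p = 0.111). It passed with DESeq2 (-1.37, adjusted p = 0.0278) and in edgeR without PBS replicate 1 (-1.75, adjusted p = 0.00683, where 16.5% of genes passed), and was -0.77 without PBS replicate 2.

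Smooth muscle and pericyte markers were also lower with MHE in sum. The 10 genes added up to 529 and 900 CPM with MHE and to 2829 and 3308 CPM with PBS. Of the 10, 1 passed, Lmod1, as lower (-2.30 ± 0.33, edgeR adjusted p = 0.0355), where 0.963% of all tested genes did. With PBS, Acta2 was the largest part of the sum (1025.5 and 2213.5 CPM, against 126 and 295 CPM with MHE). Acta2 did not pass (edgeR adjusted p = 0.0675). Cnn1 had 338 CPM in PBS replicate 1 and 2.40 CPM in PBS replicate 2. The part of these markers in the value of Ndufa4l2 was not tested. Of the pericyte genes in the list, Rgs5 had 213 and 306 CPM with MHE against 296 and 587 CPM with PBS. Higd1b had 4.88 and 3.19 against 5.34 and 6.59 CPM. Cspg4 had 6.17 and 21.8 against 17.3 and 30.2 CPM, and Notch3 28.2 and 57.5 against 35.9 and 77.8 CPM. The groups overlapped in Rgs5, Cspg4 and Notch3. Abcc9, at 41.5 and 78.6 against 39.4 and 75.0 CPM, was at similar levels in both groups.

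Cox4i2, the alternative form of subunit 4 known from lung and pericytes, was the only member with both MHE libraries above both PBS libraries, at 5.60 and 3.09 against 2.27 and 2.97 CPM. The upper PBS and lower MHE values were nearly equal, and its log2 fold change of 0.73 ± 0.46 did not pass (edgeR adjusted p = 0.351). Without MHE replicate 1 it was 0.25. Per kilobase of transcript, Cox4i2 made up 1.19% of the summed level of Cox4i1 and Cox4i2 in both MHE libraries, and 0.529% and 0.713% in PBS replicates 1 and 2.

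Cox7a2l is a relative of Cox7a2 whose protein joins complexes III and IV into supercomplexes. By CPM not divided by length, Cox7a2l was the most abundant member with a positive log2 fold change. It had 382 and 280 CPM with MHE and 285 and 189 CPM with PBS, with a small overlap between the groups (0.48 ± 0.33, edgeR adjusted p = 0.386). Its share of the summed level per kilobase of Cox7a2 and Cox7a2l was 63.1% and 70.6% with MHE and 59.7% and 49.2% with PBS. The shares did not overlap, and their difference was not tested.

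Forms of complex IV that are typical of muscle or testis were near the limit of counting. The muscle form Cox6a2 had 26, 7, 12 and 24 counts in MHE replicates 1 and 2 and PBS replicates 1 and 2 (-0.27 ± 0.83, edgeR adjusted p = 0.855), and took 0.178% to 0.344% of the summed level per kilobase with Cox6a1. The 12 skeletal muscle markers gave no single direction. Acta1 held most of their sum, at 52.9 and 155 CPM with MHE and 266 and 1174 CPM with PBS (edgeR adjusted p = 0.132), whereas 2 of the 11 tested, Ttn and Myh4, passed as higher with MHE (edgeR adjusted p = 0.0290 and 0.0486) and 0 as lower. Cox6b2, the testis form, had 62, 39, 49 and 21 counts in the same order (0.39 ± 0.64, edgeR adjusted p = 0.722). The testis forms Cox7b2 and Cox8c were at 0 counts also in PBS replicate 1, the library with testis markers, where 3 counts would be 0.108 CPM.

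Complex V turns the proton gradient into ATP through a rotating membrane ring and a catalytic F1 head. Its head held the most abundant member, Atp5b, the catalytic beta subunit, at 1259.9 and 862 CPM with MHE and 1169 and 1579 CPM with PBS. The groups overlapped (-0.37 ± 0.38, edgeR adjusted p = 0.550). Atp5a1, the alpha subunit, had 670 and 499 CPM with MHE and 718 and 831 CPM with PBS, without overlap (-0.41 ± 0.32, edgeR adjusted p = 0.441). All 5 head genes were negative, from -0.41 in Atp5a1 to -0.06 in Atp5c1.

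The stalk subunit Atp5o, known as the oligomycin sensitivity protein, had the lowest value of complex V, with 129 and 72.5 CPM with MHE and 131 and 145 CPM with PBS (-0.46 ± 0.33, edgeR adjusted p = 0.399). MHE replicate 1 was just under the lower PBS library. The 5 small membrane subunits Atp5j2, Atp5k, Atp5l, Atp5md and Atp5mpl had the median log2 fold change nearest to 0 among the roles of complex V (-0.07), while MHE replicate 2 held only 45.3% to 56.4% of MHE replicate 1.

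The c ring of complex V is made from 3 genes that encode the same mature protein behind different import signals, and their values differed in sign. Atp5g3 had 259 and 153 CPM with MHE and 258 and 304 CPM with PBS (-0.45 ± 0.34, edgeR adjusted p = 0.426). Atp5g2 had 117 and 82.7 CPM with MHE and 98.5 and 77.6 CPM with PBS (0.18 ± 0.27, edgeR adjusted p = 0.681). Atp5g1 had 35.6 and 23.1 CPM with MHE and 47.0 and 27.7 CPM with PBS (-0.34 ± 0.36, edgeR adjusted p = 0.555). As shares of their summed level per kilobase, Atp5g3 held 67.4% and 63.7% with MHE and 70.2% and 78.4% with PBS. Atp5g2 held 30.1% and 33.7% with MHE against 26.4% and 19.7% with PBS, and Atp5g1 between 1.93% and 3.46% in all libraries. The shares of Atp5g2 and Atp5g3 did not overlap between the groups, a difference that was not tested.

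Levels per kilobase, averaged over the 4 libraries, ordered the tested members from Atp5b (635 CPM per kilobase) through Cox4i1 (537), Cox8a (461) and Atp5g3 (339) down to Ndufa4l2 (9.95), Cox4i2 (4.79), Cox6b2 (2.89) and Cox6a2 (0.836). Lengths were available for 83 tested members, and also for Cox7b2 and Cox8c, which had 0 counts. Within the catalytic complex II pair, Sdha stood at 139 and Sdhb at 84.0 CPM per kilobase.

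Transcript length was a shared property that went with the difference between the MHE libraries. The lengths of the 83 tested members that had one ran from 315 to 3479 nucleotides, with a median of 763, where the median over all tested genes was 2865. Among members under 600 nucleotides, the median log2 ratio of MHE replicate 2 to MHE replicate 1 was -0.85 (25 genes). It was -0.82 from 600 to under 1000 (28 genes), -0.64 from 1000 to under 2000 (22 genes) and -0.51 from 2000 upwards (8 genes). Sdha and Ndufs1, with transcripts of 2900 and 2661 nucleotides, had 87.6% and 90.9% of the level of MHE replicate 1 in MHE replicate 2. The small Uqcr11 (445 nucleotides) had 43.6% and Atp5md (362 nucleotides) 45.3%. Single members departed from the trend. The longer Ndufab1, Sdhc and Cycs (3479, 3171 and 3123 nucleotides) had 66.1%, 60.7% and 62.7%. The short Uqcrb (535 nucleotides) had 69.7%. Median log2 fold changes between the groups (MHE minus PBS) were -0.26, -0.28, -0.30 and -0.38 from the shortest to the longest class.

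All tested genes showed a length trend as well. Their median log2 ratio of MHE replicate 2 to MHE replicate 1 was -0.67, -0.49, -0.24 and 0.12 in the same length classes. The members were lower than these medians in every class, by most in the longest. Between the PBS libraries (replicate 2 over replicate 1) the members had -0.13, 0.02, 0.10 and 0.19, and all genes -0.29, -0.23, -0.15 and 0.07. Across the 83 members, log2 length and the log2 ratio of the MHE libraries correlated at r = 0.50 (Spearman's rho 0.55). Across 14452 of all tested genes they correlated at r = 0.38 (Spearman's rho 0.48). Both values are descriptions over genes that share the same libraries and are not independent. A fit with an offset for the length trend of all genes in each library was added after seeing the data. With it, the median log2 fold change over members was -0.27, with 75 of 86 negative (53.1% of all genes) and 0 called, while 7.11% of all genes were called.

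**Figure D3:**
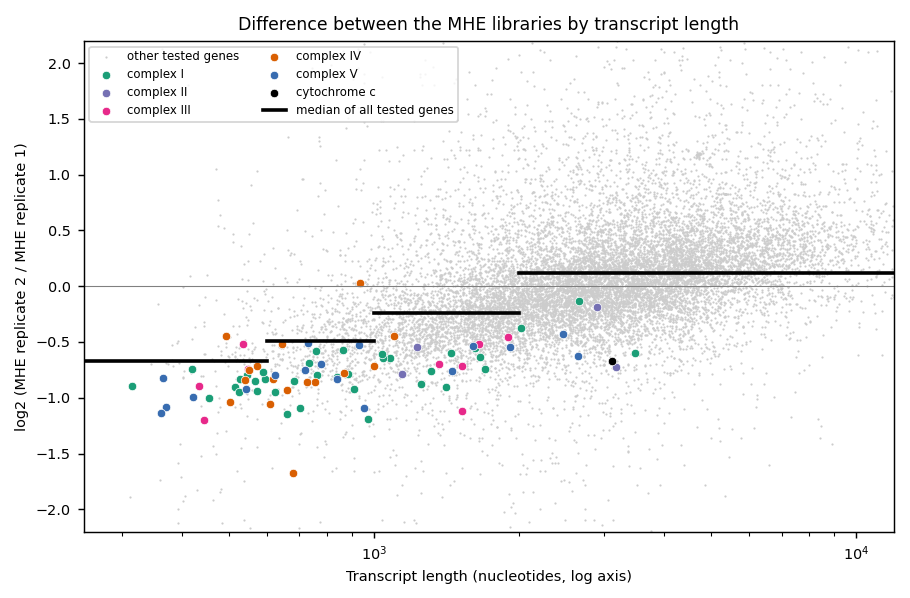
Log2 ratio of MHE replicate 2 to MHE replicate 1 (vertical axis) against transcript length in nucleotides (log axis), with genes beyond the axes not shown. Coloured points are members by complex, grey points other tested genes, and black lines the median of all tested genes in 4 length classes. Members lie under the line of their class in most cases, with Ndufa4l2 alone above 0.

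Other genes of the pathway were taken from lists of assembly factors, of tricarboxylic acid cycle and pyruvate dehydrogenase enzymes, and of regulators of mitochondrial biogenesis and gene expression. None of their 52, 18 and 23 tested genes passed edgeR's test, against 4.93% of all genes, and 3, 2 and 9 had an unadjusted p under 0.05, against 28.6%. With DESeq2, 6 of the 93 passed, 5 higher and 1 lower, where 18.2% of all genes passed. Assembly factors, which help build the complexes without staying in them, had a median log2 fold change of -0.15 with 35 of 52 negative. The cycle enzymes, which supply the chain with NADH and succinate, had -0.40 with 17 of 18 negative. The 10 adipocyte markers also summed to less in both MHE libraries (11887 and 11686 CPM) than in PBS (15756 and 23858 CPM). Their median log2 fold change was -0.69, and 1 of 10 was called, Lep, as lower, where 0.963% of all tested genes were. Lep had 762 and 633 CPM with MHE and 3764 and 5411 CPM with PBS. The markers did not share a direction. Cfd (2016 and 2140 against 854 and 1644 CPM) and Pck1 (1528 and 2510 against 1194 and 1524 CPM) were higher in both MHE libraries. Retn overlapped between the groups, and the other markers were lower in both MHE libraries. The part of the 10 markers in the cycle enzymes' values was not tested.

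The assembly factors with the smallest p were Cmc2, Higd1a and Acad9. Cmc2, which serves complex IV, had 9.06 and 8.0 CPM with MHE and 13.7 and 15.4 CPM with PBS (-0.77 ± 0.24, edgeR adjusted p = 0.122). Higd1a, a hypoxia-inducible partner of complex IV, had 32.8 and 19.5 against 48.9 and 48.1 CPM (-0.89 ± 0.29, edgeR adjusted p = 0.135), and Acad9, an assembly factor of complex I, 42.0 and 35.0 against 52.8 and 70.3 CPM (-0.68 ± 0.24, edgeR adjusted p = 0.146). In all 3, both MHE libraries were under both PBS libraries. This held for 16 of the 52 assembly factors (30.8%) and for 28.9% of all tested genes.

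Among the cycle enzymes, Dlat, a core component of pyruvate dehydrogenase, had 66.8 and 61.3 CPM with MHE and 96.0 and 130 CPM with PBS (-0.82 ± 0.24, edgeR adjusted p = 0.110). It passed with DESeq2 (-0.85, adjusted p = 0.0290) and in edgeR without PBS replicate 1 (-1.04, adjusted p = 0.0361), and was -0.57 without PBS replicate 2. Dld, a component shared by several dehydrogenases, had 120 and 102 against 158 and 224 CPM (-0.78 ± 0.27, edgeR adjusted p = 0.146). Idh2 had 116 and 88.4 against 120 and 184 CPM (-0.57 ± 0.31, edgeR adjusted p = 0.281). For these enzymes PBS replicate 2 was the high library. All 18 were higher in PBS replicate 2 than in PBS replicate 1, as was the sum of the adipocyte markers.

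The regulators lay on the other side of 0, with a median log2 fold change of 0.40 and 20 of 23 positive. Both MHE libraries were above both PBS libraries in 16 of them, 69.6%, where this held for 33.1% of all tested genes. Ppargc1b, a coactivator of mitochondrial genes, had 10.7 and 14.4 CPM with MHE and 3.93 and 4.70 CPM with PBS (1.54 ± 0.30, edgeR adjusted p = 0.0556). Nrf1, whose protein binds the NRF1 motif, had 32.9 and 30.5 against 16.7 and 14.1 CPM (1.04 ± 0.21, edgeR adjusted p = 0.0576). Gabpb1, a subunit of the ETS factor GABP, had 29.7 and 34.5 against 15.4 and 16.8 CPM (0.99 ± 0.20, edgeR adjusted p = 0.0600).

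These 3 regulators, chosen for the smallest p of the list, passed with DESeq2 (adjusted p = 0.00207, 0.00547 and 0.00965), where 18.2% of all tested genes passed. In edgeR with a library left out, the log2 fold change ranged from 1.33 to 1.75 for Ppargc1b. It ranged from 0.94 to 1.15 for Nrf1 and from 0.90 to 1.11 for Gabpb1. The 3 regulators with a negative value were Esrrg (-0.86), Tfb2m (-0.15) and Slirp (-0.12). Beside these values, 8 of the 8 T cell markers and 3 of the 8 B cell markers passed edgeR's test as higher with MHE. Of all tested genes, 3.97% passed as higher. The part of lymphocyte RNA in the regulators was not tested.

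**Figure D4:**
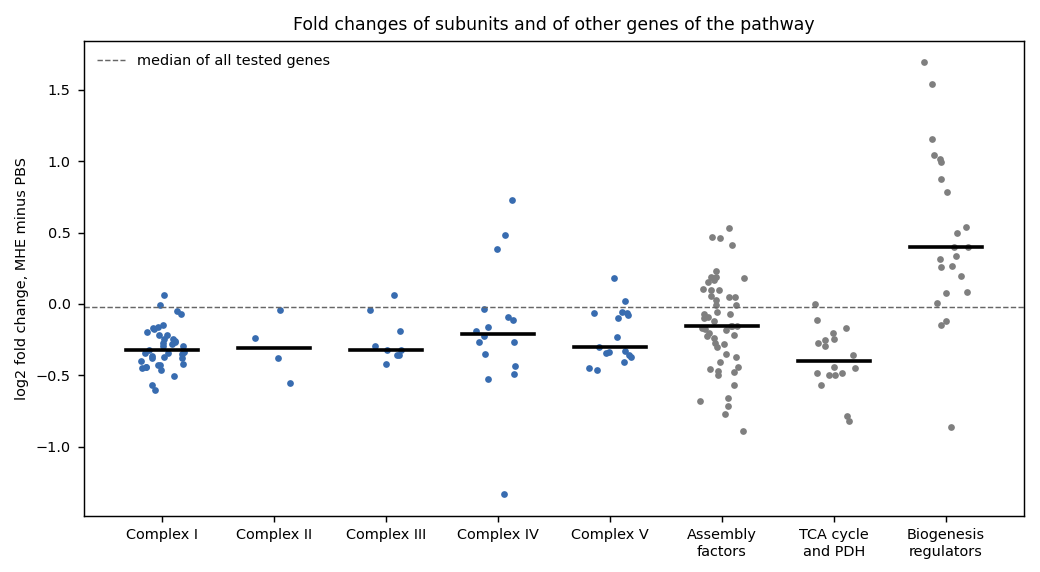
Log2 fold change (MHE minus PBS, vertical axis) of each tested gene of complexes I to V (blue) and of the assembly factors, the tricarboxylic acid (TCA) cycle and pyruvate dehydrogenase (PDH) enzymes and the biogenesis regulators (grey). Black lines are medians, from -0.40 for the cycle enzymes to 0.40 for the regulators, and the dashed line is the median of all tested genes (-0.02).

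The genes left out by the rule are forms typical of brown fat and muscle. Cox8b stood at 49.4 and 14.8 CPM with MHE and 6.93 and 13.8 CPM with PBS (1.63 ± 0.66, edgeR adjusted p = 0.186). Cox7a1 had 4.21 and 1.40 against 3.97 and 3.79 CPM (-0.46 ± 0.60, edgeR adjusted p = 0.642). For both, MHE replicate 1 was the highest library.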

How the data were processed

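Each of the 4 libraries came with a table of raw counts for 26214 gene symbols, as the authors deposited it. The submitters' processing notes name TopHat2, edgeR, limma and the mm10 build. How reads were counted, and with which gene models and strand setting, is not given in the sources used here. The labels' protocols speak of triplicate libraries, and 2 a group are analysed here. The members and lists were chosen with earlier results of these data known.

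Counts were fitted with edgeR 4.0.16 in R 4.3.3: filterByExpr (minimum count 10, minimum total 15), TMM factors, a robust quasi-likelihood fit, and Benjamini-Hochberg adjustment over 16196 genes with a threshold of 0.05. SEs were derived from the F statistic of each gene, as the fold change in log2 over its root. CPM use TMM-scaled library sizes. The biological coefficient of variation was 33.6%. Lists were described by counts and medians, without set tests. P-values set the difference between the groups against the spread between these libraries, estimated with information from all tested genes. As it is not said whether animals were pooled, they cannot be read as a statement about the spread between animals.

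Transcript lengths are medians of GENCODE M21 protein-coding transcripts linked to RefSeq, found for 20496 symbols. Full values were given to core subunits and isoform sets, to the extremes and smallest p of each complex, and to the 3 genes of smallest p of each pathway list. The values of 1 complex I subunit are not reported here. Other genes named, such as Sdhd or the ends of a range, were chosen after their values were seen. Other settings tried were size factors by median of ratios or by totals, DESeq2 1.42.0, limma-voom (limma 3.58.1), 2 other filters, the replicate number as a block, each library left out, and, added after seeing the data, a length offset in 20 bins and a fit without robust estimation. The procedure was run on simulated data with 1 dispersion for all genes and with changes larger than those of the members. That run gives no measure of the power to detect changes of the members' size. Replicates differed by more than sampling noise (chi-square per degree of freedom 142 and 174).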

Additional observations from a re-analysis of the deposited data

How the results depend on the processing

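The absence of calls among members held under every setting run except DESeq2 and without PBS replicate 1 (1 member each, Ndufa4l2), and ranged from 0 to 1 over the left-out libraries. Without MHE replicate 1, and without MHE replicate 2, 0 of all genes passed, so a count of 0 there says nothing about the members. All genes called numbered 2951 with DESeq2 and from 0 to 2750 with a library left out, against 799. The members' negative sign depended on MHE replicate 2: negative members ranged from 33 to 83 with a library left out. The median log2 fold change then ranged from -0.75 to 0.063 for complex I, -0.57 to -0.13 for complex II, -0.63 to 0.071 for complex III, -0.71 to 0.21 for complex IV, -0.64 to 0.17 for complex V, -0.70 to 0.071 for all members, -0.37 to 0.11 for assembly factors, 0.34 to 0.52 for regulators and -0.64 to -0.12 for cycle enzymes. With library totals alone the median of all genes moved from -0.02 to 0.14, 65 members were negative, and assembly factors had a median of 0.011. The regulators' median was 0.37 with median-of-ratios factors, 0.56 with library totals, 0.37 with DESeq2, 0.41 without the low-count filter and 0.36 with the length offset. Calls among the 3 pathway lists numbered 2 of 93 with library totals (5.85% of all genes), 6 with DESeq2 (18.2%), 2 with the length offset (7.11%) and 0 to 4 with a library left out (0.00% to 16.5%).

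Members given in full that changed sign with a library left out, with their ranges, were Ndufa6 -0.35 to 0.41, Sdhb -0.47 to 0.31, Uqcrh -0.34 to 0.40, Uqcr11 -1.13 to 0.071, Atp5g2 -0.076 to 0.43, Sdha -0.49 to 0.057, Uqcrfs1 -0.57 to 0.13, Cyc1 -0.68 to 0.028, Cox4i1 -0.70 to 0.16, Cox5a -0.30 to 0.21, Cox6a2 -1.31 to 0.34, Cox6b2 -0.12 to 1.17, Cox7a2 -0.72 to 0.21, Ndufa4 -0.97 to 0.094, Atp5g1 -0.68 to 0.072, Cox7b -0.48 to 0.24. With library totals, Sdhb, Cox5a and Cox7b had 0.13, 0.13 and 0.072, and with the length offset Cox5a had 0.039. The causes were not tested, beyond the shift of all genes under library totals. The replicate numbers are only names here: with the replicate block, 0 members passed, 80 were negative and their median was -0.34, and 764 genes passed. The deviations of same-numbered libraries correlated at 0.17 over genes. No member matched Atp5s or Atp5sl, so leaving them out gave no other value.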
